A study of Mus musculus with 68 samples.

Results

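Late 2-cell mouse embryos labelled mHet were compared with embryos labelled WT by RNA sequencing, to see what a lower amount of Ezhip transcript goes with at this stage. The comparison used 4 of the 68 libraries of the series, 2 mHet and 2 WT, and 10322 of the 15118 genes in the late 2-cell table. A gene was kept when it reached 1 FPKM (fragments normalised to the length of the transcript and the total of the library) in at least 2 of the 6 libraries of that table. The other 2 libraries carry the label mKO, and they entered the fit to help estimate the spread between libraries.

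The genotype labels read wild type for WT (spelled "wide type" at this stage), Ezhip mHet and Ezhip mKO. The labels do not spell out the m, and they give neither the deleted part of the gene, the strain, nor the number of embryos in a library. Poly(A) RNA was amplified by the Smart-seq2 method directly from lysed embryos. An inhibitor of the enzyme EZH2 (GSK343) named in the series' treatment text was given to embryos that were collected at the 8-cell stage, so it does not concern these libraries. Nothing in the labels says that the 2 libraries of a group came from separate matings, so p-values measure only the spread between these libraries, which may be technical.

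EZHIP is the product of an X-linked gene that is active in oocytes, and it inhibits PRC2, the complex that places the repressive mark H3K27me3 on histone H3. PRC2 adds the methyl groups through EZH2 or EZH1, held together by EED and SUZ12. In the mouse, the late 2-cell stage is the time of major genome activation. Maternal mRNA is being removed, housekeeping genes are switched on, and a set of genes that includes the Zscan4, Tdpoz and Usp17l families is transcribed briefly and then silenced.

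The 6 libraries detected 9191 to 9804 genes at 1 FPKM or more. FPKM values keep no record of sequencing depth, so the depth is unknown and no counting interval is given. The precursor ribosomal RNA Rn45s took 5.04% to 5.75% of the summed FPKM in the 3 libraries numbered 1 and 1.68% to 2.48% in the 3 libraries numbered 2. Over the 10322 genes, Spearman's rho was 0.943 between the 2 WT libraries, 0.930 between the 2 mHet libraries and 0.956 between WT replicate 2 and mHet replicate 2. That last pair was the most alike of the 15 pairs, so libraries were not always most alike within a genotype. The 6 Y-linked genes measured were all at 0 in mHet replicate 1, whereas their summed level was 15.1 and 4.92 FPKM in WT and 11.6 FPKM in mHet replicate 2. Y-linked transcripts thus differed between the 2 mHet libraries, and their part in the results was not tested. Defining transcripts of the 2-cell stage (Zscan4c, Zscan4d, Zfp352, Tdpoz1, Gm4340) were present in every library. Of the same marker choice, Tdpoz3 was only at 0.466 to 0.923 FPKM in the 4 WT and mHet libraries. Usp17la was at 0.409 to 1.96 FPKM there. Of markers of other cells, the cumulus and follicle list (7 genes measured) summed to 27.3 to 30.6 FPKM in the 4 WT and mHet libraries, of which the receptor gene Amhr2 gave 24.5 to 27.9 FPKM.

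Ezhip itself (listed under its older symbol AU022751) was lower in mHet than in WT embryos. It stood at 15.9 and 15.7 FPKM in WT replicates 1 and 2, at 5.92 and 9.80 FPKM in mHet, and at 0 and 0.585 FPKM in mKO. The 3 genotypes did not overlap, and the mHet mean was 49.7% of the WT mean. On the log2(FPKM + 1) scale, which understates changes of low genes, the difference was -0.96 (SE 0.36, 95% interval -1.78 to -0.14). The unadjusted p was 0.0273, and limma's test with Benjamini-Hochberg adjustment over all genes gave an adjusted p of 1.00. The loss in mKO passed the same test against both other groups, with -3.74 against WT (limma adjusted p = 0.0433) and -2.78 against mHet (limma adjusted p = 0.0477).

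The same ordering of genotypes was seen at the stages before. In full-grown oocytes Ezhip was at 546 and 297 FPKM in WT and at 143 and 84.1 FPKM in oocytes labelled Het, a mean of 27.0% of WT. In late 1-cell embryos (labelled PN5) it was at 251 and 368 FPKM in WT and at 157 and 244 FPKM in mHet, a mean of 64.7% of WT, with the higher mHet value just under the lower WT value. The PN5 log2 difference was -0.63 (SE 0.35, 95% interval -1.47 to 0.20, unadjusted p = 0.115 by limma). By the 8-cell stage the transcript was at 1.503 and 0.229 FPKM in WT and at 0.368 FPKM in the only mHet library. The tables of the 4 stages were normalized separately, so levels are best read within a stage.

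**Figure D1:**
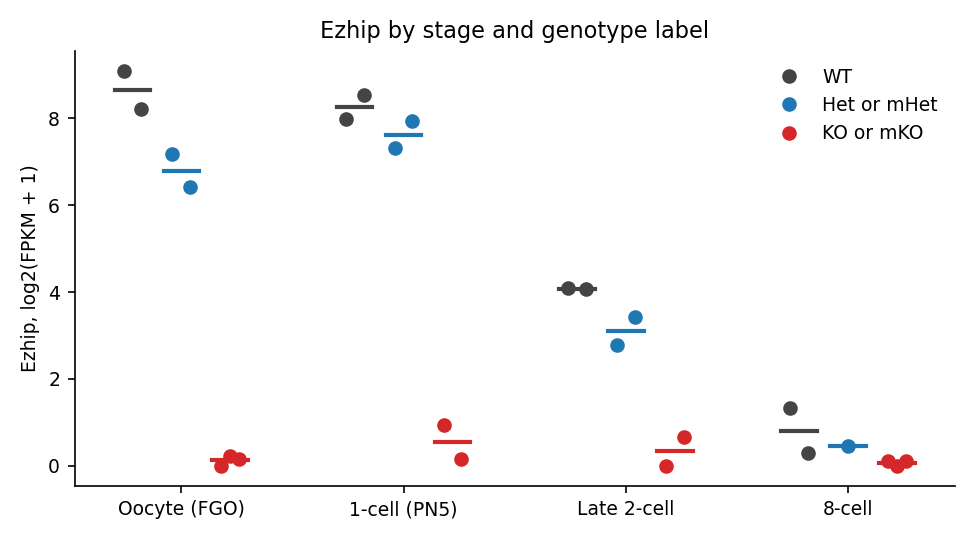
Ezhip level as log2(FPKM + 1) in each library (points) with the group mean of the log values (bars), by stage and genotype label. In late 2-cell embryos the 2 mHet points, at 5.92 and 9.80 FPKM, lie between WT and mKO.

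No gene of the 10322, Ezhip included, passed an adjusted p of 0.05 between mHet and WT in limma (0 called, 0% of the genes tested). At an unadjusted p under 0.05 there were 303 genes, 2.94% of those tested, with 163 higher (1.58%) and 140 lower (1.36%) in mHet. The median difference over all genes was 0.03. A typical gene had an SE of 0.33 and a 95% interval of 0.76 to either side of its difference. Differences within that interval could not be resolved with 2 libraries a group. The adjusted threshold could miss larger ones too. In data simulated from the fitted spread, 200 genes with a mean log2 level above 2 were changed by 1, 2 or 4 in log2. Of those changed by 1, 4.48% passed, and of those changed by 2, 56.7% passed. The adjusted threshold depends on how many genes change and by how much, so these shares hold for that setting only. The groups did not overlap for 1688 genes that were higher (16.4%) and 1444 that were lower (14%) in mHet. Leaving out mHet replicate 1 gave 1 called gene, Phc2, a PRC1 subunit that was at 31.8 and 31.6 FPKM in WT, 24.7 FPKM in mHet replicate 1 and 1.60 FPKM in mHet replicate 2.

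Of the 140 lower genes, 11 were 2-cell-stage genes (7.86%, against 0.368% of all genes kept) and 42 had predicted or clone-derived names (30.0% against 8.21%). In categories that can overlap with these, 27 belonged to a maternal set described further on (19.3% against 11.9%), and 2 to a set of genes switched on by the 8-cell stage (1.43% against 12.0%). Of the 163 higher genes, 0 were 2-cell-stage genes, 12 had such names (7.36%), 9 were maternal (5.52%) and 35 were in the switched-on set (21.5%). These counts describe genes chosen by p-value, with no test of the difference.

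**Figure D2:**
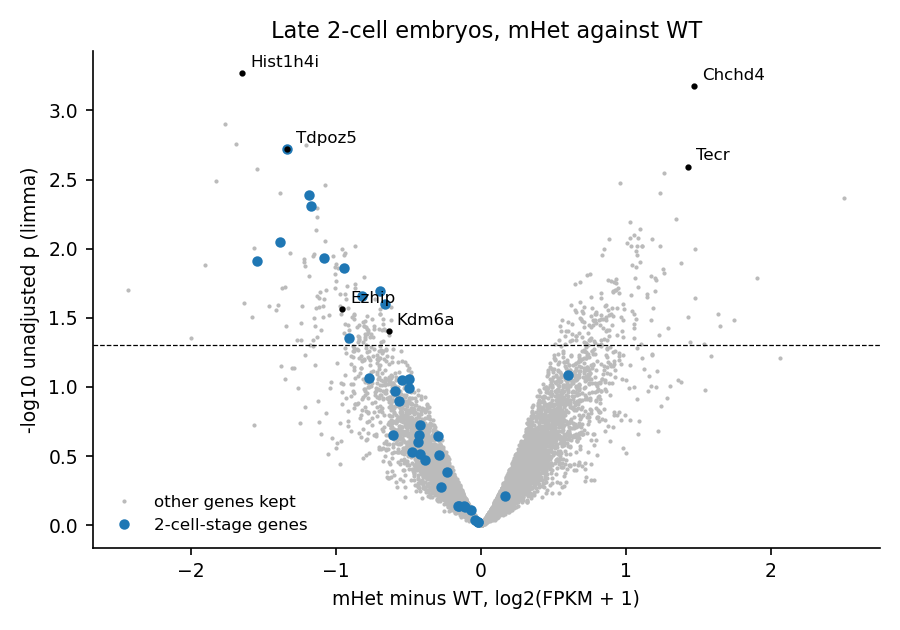
Each point is 1 of the 10322 genes, with the mHet minus WT difference in log2(FPKM + 1) on the x axis and -log10 of limma's unadjusted p on the y axis, and the dashed line marks the 0.05 level. The 38 genes of the 2-cell-stage list (blue) lie mostly left of 0, and 11 of them stand above the line.

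The list of genes known to be transcribed briefly at the 2-cell stage had the lowest median of the 30 lists that kept 5 or more genes. Of 53 listed genes, 40 were in the table and 38 passed the minimum. Not every member was confined to this stage here: 1 of the 38 is in the maternal set and 2 are in the activated set, both described further on. Arg2 was at 261 and 259 FPKM in WT PN5 embryos. Sp110 was at 184 and 228 FPKM in WT PN5 embryos and 114 and 153 FPKM in WT 8-cell embryos. The mHet mean was lower than WT for 36 of the 38 and higher for 2 (Tdpoz2 and Tdpoz3), against 46.2% lower and 53.8% higher over all genes. The median difference was -0.45, with 11 genes at an unadjusted p under 0.05, all lower (28.9% against 1.36% of all genes), and none past the adjusted threshold. The mHet and WT libraries did not overlap for 18 lower members (47.4% against 14% of all genes) and 1 higher member. Summed over the list, the WT libraries held 1258 and 1291 FPKM, the mHet libraries 688 and 932 FPKM and the mKO libraries 1851 and 2128 FPKM, with no overlap between the 3 genotypes. Many members are near-identical copies on a few chromosomes, among which the authors' counting may have split reads, so they are not independent genes. In RNA from whole embryos, fewer cells with a transcript and less of it in each cell cannot be told apart.

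Upstream sequence of 3 members is shown because the list shares features there that the choice of genes did not use, and Chchd4, the higher gene with the smallest p among those named, is shown for contrast. Each is the 250 bases before the RefSeq start site in GRCm38.p6, another build than the mm9 that the submitters' processing notes name. Each is written 5′ to 3′ on the strand of the gene. Capitals mark TATAAA in Zscan4d, GGATTAA or its reverse complement TTAATCC in Zfp352 and Gm4340, and GGGCGG in Chchd4.
Zscan4d (chr7:11166149-11166398, minus strand): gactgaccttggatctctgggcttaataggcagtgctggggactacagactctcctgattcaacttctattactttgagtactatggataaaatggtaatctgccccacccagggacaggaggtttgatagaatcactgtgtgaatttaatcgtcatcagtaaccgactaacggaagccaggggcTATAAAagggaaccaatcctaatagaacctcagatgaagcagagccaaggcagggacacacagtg
Zfp352 (chr4:90218570-90218819, plus strand): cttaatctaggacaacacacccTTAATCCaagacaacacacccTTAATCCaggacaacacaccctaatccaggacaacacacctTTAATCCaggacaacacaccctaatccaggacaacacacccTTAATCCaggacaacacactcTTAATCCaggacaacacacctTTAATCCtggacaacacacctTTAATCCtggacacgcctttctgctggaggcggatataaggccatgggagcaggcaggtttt
Gm4340 (chr10:104193792-104194041, plus strand): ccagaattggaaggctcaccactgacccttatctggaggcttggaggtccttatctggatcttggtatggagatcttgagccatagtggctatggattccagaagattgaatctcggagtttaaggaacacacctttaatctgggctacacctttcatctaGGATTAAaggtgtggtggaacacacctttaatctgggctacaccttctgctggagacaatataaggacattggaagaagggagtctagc
Chchd4 (chr6:91473424-91473673, minus strand): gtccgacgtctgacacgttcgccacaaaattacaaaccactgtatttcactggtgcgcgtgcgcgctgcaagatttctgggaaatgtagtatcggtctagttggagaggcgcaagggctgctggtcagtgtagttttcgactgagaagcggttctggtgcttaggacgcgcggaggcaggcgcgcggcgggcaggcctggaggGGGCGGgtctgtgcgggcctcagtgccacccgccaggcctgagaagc
RefSeq promoters were matched by symbol for 26 of the 38 members and for 8196 of the genes kept. Motifs were searched on both strands, as a description of letters and not of bound sites. TATAAA, the core of the TATA box, was in 8 of 26 members' windows (30.8%) and in 6.86% of all windows, and in Zscan4d it starts 65 bases before the start site. GGATTAA, the core that OTX- and OBOX-type homeodomains are known to bind, was in 9 of 26 (34.6%) against 1.84%, with 7 matches in a tandem repeat upstream of Zfp352. CCAAT was in 16 of 26 (61.5%) against 38.5%. GGGCGG, the core of the GC box, was in 0 of 26 against 58.6%, which says only that these letters are not in the windows. The median GC content was 44.2% in the members and 59.6% in all windows. Copies of a family share much of this sequence, so the 26 windows are fewer than 26 independent ones.

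Among the members, the smallest p belonged to Tdpoz5, of a family of BTB-domain genes, followed by a group of predicted genes. Tdpoz5 was at 68.6 and 61.4 FPKM in WT, 19.1 and 32.9 FPKM in mHet and 88.1 and 116.9 FPKM in mKO. Its mHet mean was 40.0% of WT, a log2 difference of -1.34 (SE 0.30, unadjusted p = 0.0019 by limma). Tdpoz5 thus separated all 3 genotypes, with mHet the lowest.

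Gm4340, whose GGATTAA lies 89 bases before its start, was at 9.91 and 16.3 FPKM in WT, 2.86 and 6.13 FPKM in mHet and 44.3 and 81.7 FPKM in mKO. Its difference was -1.39 (SE 0.41, unadjusted p = 0.0090 by limma), again with mHet lowest and mKO highest. BB287469 and Gm4027, both on chromosome 12, followed the same order. BB287469 was at 55.6 and 71.7 FPKM in WT, 20.4 and 36.1 FPKM in mHet and 134.7 and 120.0 FPKM in mKO. Gm4027 was at 49.6 and 59.5 FPKM in WT, 17.2 and 32.2 FPKM in mHet and 124.4 and 109.2 FPKM in mKO. The most abundant member, Gm16381, was different: it was at 440 and 358 FPKM in WT and 172 and 245 FPKM in mHet, but at 382 and 334 FPKM in mKO, within or just under the WT range.

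The Zscan4 genes, the best known 2-cell markers, overlapped between the groups apart from Zscan4a, which was at 7.16 and 10.2 FPKM in WT and 4.06 and 6.90 FPKM in mHet. Zscan4d was at 8.66 and 9.90 FPKM in WT and 4.44 and 9.66 FPKM in mHet, and Zscan4c at 6.39 and 9.34 FPKM in WT and 4.67 and 6.45 FPKM in mHet. Zfp352, a zinc-finger gene, was at 39.0 and 50.9 FPKM in WT and 34.2 and 31.8 FPKM in mHet, a difference of -0.42 (SE 0.30, unadjusted p = 0.188 by limma). The deubiquitylase genes Usp17la, Usp17lb, Usp17ld and Usp17le overlapped between the groups, with means 70.8% to 97.2% of WT. Usp17lc did not overlap, at 8.40 and 8.84 FPKM in WT and 5.95 and 5.67 FPKM in mHet, a mean of 67.4% of WT. Tdpoz2 was the 1 member with groups apart in the other direction, at 6.29 and 7.40 FPKM in WT and 9.46 and 12.5 FPKM in mHet.

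The lower level of the list was carried more by mHet replicate 1 than by replicate 2. The median was -0.25 with 30 of 38 lower when mHet replicate 1 was left out, and -0.72 with 34 of 38 lower when mHet replicate 2 was left out. Without WT replicate 1 it was -0.68 with 34 lower, and without WT replicate 2 it was -0.35 with 29 lower. At the 1-cell PN5 stage only 7 of the members were above the minimum, with a median of -0.014. Among the 7 were Arg2 and Sp110, whose RNA was already abundant at PN5, so this median does not stand for the whole list.

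**Figure D3:**
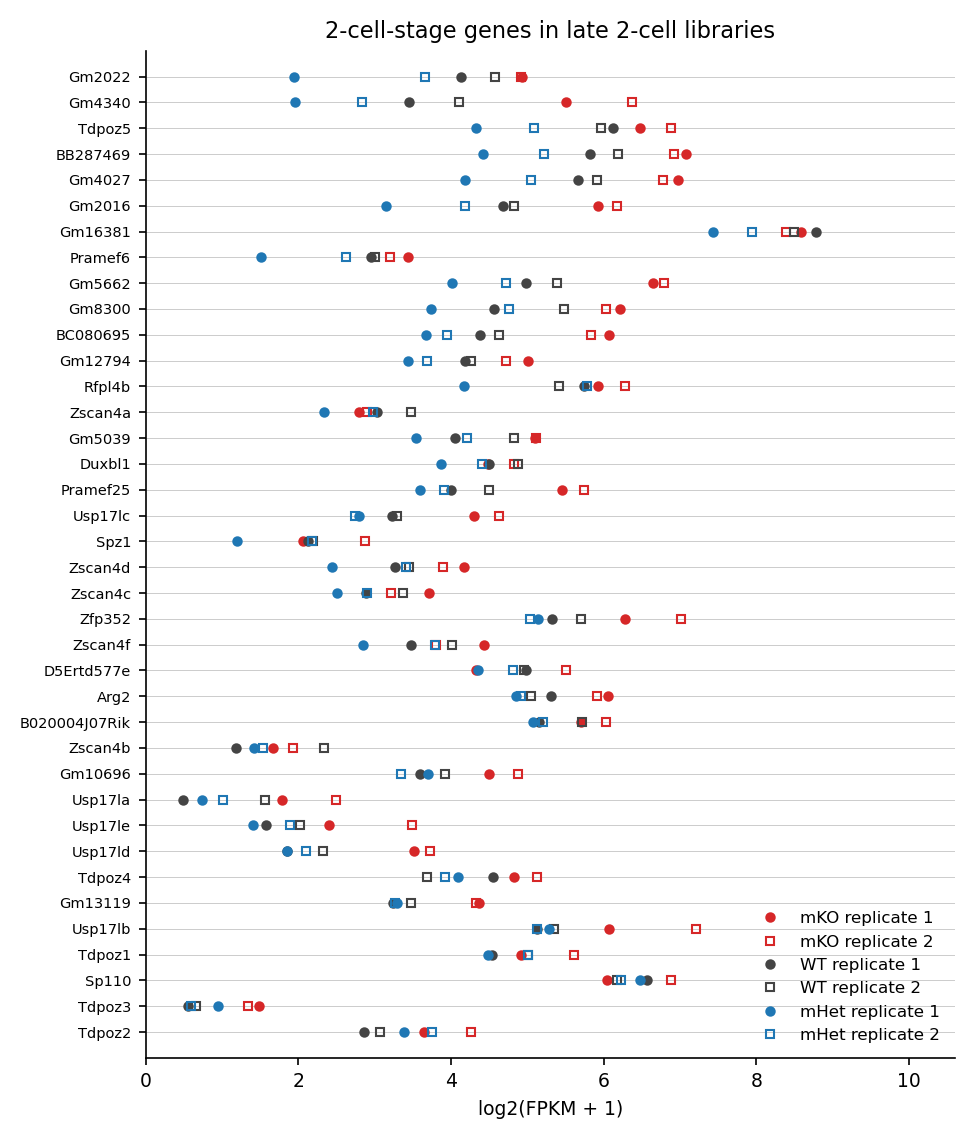
Level of each of the 38 2-cell-stage genes as log2(FPKM + 1) on the x axis, in the 6 late 2-cell libraries, ordered by the mHet minus WT difference with the lowest at the top. The mHet symbols lie left of the WT symbols without overlap for 18 genes, and the mKO symbols lie mostly to the right.

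A direct test of mKO against mHet called 9 genes in limma (0.0872% of the genes tested), 6 higher (0.0581%) and 3 lower (0.0291%) in mKO. This contrast shares the mHet libraries with the one above, and mKO against WT shares the WT libraries, so their values are given side by side. The higher genes were BC080695, Gm4340, Gm5662, Gm4971, Gm13057 and Gm13040, of which the last 2 had identical values in every library and count as 1 profile. BC080695, a Prame-like gene, was at 11.7 and 14.5 FPKM in mHet and 66.3 and 56.0 FPKM in mKO, against 19.8 and 23.8 FPKM in WT. The mKO minus mHet difference was 2.14 (SE 0.24, limma adjusted p = 0.0477). Gm4340 rose by 3.54 in log2 from mHet to mKO, and Gm5662 by 2.35, each with the same limma adjusted p of 0.0477. The lower genes were Ezhip, 1700003E24Rik and Mtx2. Mtx2, which encodes an outer-membrane protein of mitochondria, was at 18.1 and 23.5 FPKM in mHet, 4.72 and 3.88 FPKM in mKO and 16.2 and 17.3 FPKM in WT.

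The number of calls in that contrast moved with the settings. It was 0 when the 2 groups were fitted alone, with no minimum level, with a pseudocount of 0.1, or without mHet replicate 1, mKO replicate 1 or mKO replicate 2, and it was 25 without mHet replicate 2. It was higher than 9 with Rn45s removed (37), with a minimum mean of 5 FPKM (18) and with median-ratio scaling (16). Against WT, 1 gene passed in mKO, Ezhip (0.00969%). Within the 2-cell-stage list, the median was 0.81 for mKO minus WT and 1.20 for mKO minus mHet. In the latter, 38 of 38 members were higher in mKO (40.2% of all genes). Of these, 28 were at an unadjusted p under 0.05 in limma (3.36% of all genes in that direction) and 3 past the adjusted threshold. Tdpoz3 passed the minimum of 1 FPKM only through the mKO libraries (1.80 and 1.53 FPKM), so the filter fixed its direction in both contrasts. For the same members mHet minus WT was -0.45, so the list's level was not ordered by the amount of Ezhip transcript.

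Genes of the first, minor wave of genome activation were lower in mHet for 8 of 11 kept, with a median of -0.28. This list shares members with the 2-cell-stage list, among them Zscan4c and Zscan4d. Its summed level overlapped between the groups, at 1199 and 1228 FPKM in WT and 1037 and 1319 FPKM in mHet. Of the 11, 0 were at an unadjusted p under 0.05 in limma (2.94% of all genes). The groups did not overlap for 5 lower members (45.5% against 14% of all genes) and 0 higher ones. Obox3, of the OBOX homeodomain family, was at 283 and 259 FPKM in WT and 199 and 248 FPKM in mHet. Obox1 was at 23.3 and 29.8 FPKM in WT and 19.8 and 21.0 FPKM in mHet. Obox2 was at 22.2 and 24.5 FPKM in WT and 17.3 and 18.6 FPKM in mHet. The chromatin factors Dppa2 and Dppa4, known as activators of 2-cell genes, overlapped between the groups, with Dppa4 at 157 and 153 FPKM in WT and 147 and 178 FPKM in mHet. The Prame-like and Oog family, leucine-rich-repeat genes of oocytes and early embryos, was lower for 19 of 23, with a median of -0.28 and 10 members apart between the groups (43.5% against 14% of all genes). Its list shares members with the 2-cell-stage list, among them Pramef6, at 6.77 and 7.05 FPKM in WT and 1.86 and 5.17 FPKM in mHet.

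The stage of the embryos was then described with genes chosen in other libraries. A maternal set held genes that were at least 4 times higher in every WT PN5 library than in every WT 8-cell library, and an activated set held the reverse, each with a mean of at least 10 FPKM at the higher stage. Of the 1232 maternal genes kept, 832 were lower in mHet than in WT (67.5%) and 400 were higher, with a median of -0.12. Of the 1234 activated genes kept, 898 were higher (72.8%) and 336 were lower, with a median of 0.14. Over the 9857 genes in all 3 tables the median was 0.03 and 54.3% were higher.

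The groups did not overlap for 314 lower maternal genes (25.5%) and 297 higher activated genes (24.1%), against 14% lower and 16.4% higher over all genes. For the maternal set, the median log2(FPKM + 1) of WT replicates 1 and 2 was 3.04 and 3.09, that of the mHet replicates 2.97 and 2.84, and that of the mKO replicates 3.10 and 2.88. For the activated set, the WT replicates had medians of 4.65 and 4.76, the mHet replicates 4.82 and 4.97, and the mKO replicates 4.503 and 4.75. The mHet libraries thus had the lowest maternal medians apart from mKO replicate 2 and the highest activated medians. The maternal median stayed lower whichever 1 library was left out (-0.17 to -0.08). The activated median rested on mHet replicate 2: without it the median was -0.00085, with 615 genes higher and 619 lower, and without mHet replicate 1 it was 0.29. At PN5 the same sets had medians of -0.0016 (maternal) and -0.04 (activated) for mHet minus WT.

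**Figure D4:**
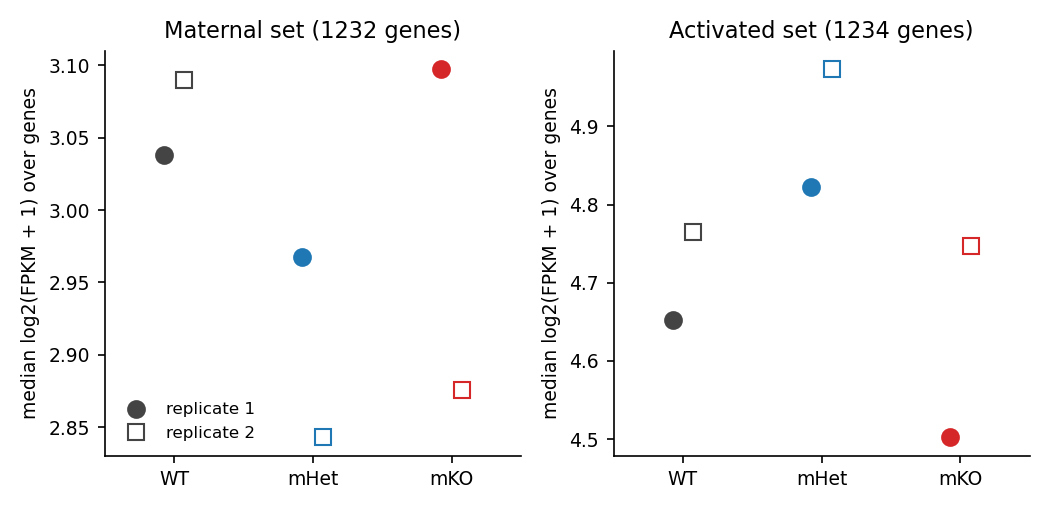
Median log2(FPKM + 1) over the genes of the maternal set (left) and the activated set (right) in each late 2-cell library, with axes that do not start at 0. The 2 mHet libraries lie under both WT libraries in the maternal set (2.97 and 2.84) and over both in the activated set (4.82 and 4.97).

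A list of oocyte factors, of which 41 of the 60 kept are in the maternal set and 2 in the activated set, had 44 of 60 lower in mHet and a median of -0.17. At an unadjusted p under 0.05 there were 3 members, all lower (5% against 1.36% of all genes). Bmp15, a growth factor secreted by the oocyte, was at 68.8 and 75.5 FPKM in WT and 39.9 and 54.2 FPKM in mHet. Ooep, of the subcortical maternal complex, was at 59.0 and 55.9 FPKM in WT and 37.6 and 33.8 FPKM in mHet. Wee2, an oocyte kinase that restrains the cell cycle, was at 36.5 and 45.5 FPKM in WT and 22.6 and 28.5 FPKM in mHet. Each had mHet values below both WT values. In mKO, Bmp15 was at 70.2 and 64.5 FPKM, Ooep at 33.6 and 51.5 FPKM and Wee2 at 38.7 and 26.7 FPKM, so Ooep was below WT while Bmp15 and Wee2 had 1 library within the WT values and 1 below. The list's median ranged from -0.38 to -0.05 with 1 library left out. Factors that store or remove maternal mRNA were lower for 27 of 42, with a median of -0.12 and 0 at an unadjusted p under 0.05 (2.94% of all genes).

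Respiratory-chain, proteasome, ribosome, translation and splicing genes lay on the other side. Genes of glycolysis and pyruvate use were close to all genes, with 13 of 22 higher and a median of 0.036 against 0.028. The lists on that side share members with the activated set, so their medians are not independent of its median. The activated set holds 42 of the 76 respiratory-chain genes kept, 10 of 34 proteasome genes and 79 of 80 ribosomal protein genes. It also holds 21 of 58 nucleolar, 15 of 38 translation initiation and 13 of 56 splicing genes. Subunits of the respiratory chain were higher in mHet for 65 of 76, with a median of 0.19 and 6 at an unadjusted p under 0.05 (7.89% against 1.58% of all genes). Ndufa9, of complex I, was at 11.2 and 16.0 FPKM in WT and 24.0 and 27.2 FPKM in mHet. Ndufb9, also of complex I, was at 31.3 and 34.3 FPKM in WT and 61.5 and 50.7 FPKM in mHet. Both were apart from WT in both mHet libraries. Sdhb, of complex II, was at 13.6 and 14.0 FPKM in WT and 21.5 and 25.1 FPKM in mHet. Yet the list as a whole followed mHet replicate 2, since its median was -0.031 without that library and 0.51 without mHet replicate 1.

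Proteasome subunits were higher for 29 of 34, with a median of 0.27, which was 0.039 without mHet replicate 2. Psma7, a subunit of the core particle, was at 27.2 and 40.0 FPKM in WT and 47.2 and 83.8 FPKM in mHet. Ribosomal proteins were higher for 65 of 80, with a median of 0.11, and 2 of the 80 were higher without overlap between the groups (2.5% against 16.4% of all genes). Their summed level was 17094 and 24145 FPKM in WT and 17643 and 26624 FPKM in mHet, so it was high in the replicates numbered 2 of either genotype. The median turned to -0.14 without WT replicate 1 and -0.20 without mHet replicate 2. Nucleolar factors were higher for 38 of 58 (median 0.11), translation initiation factors for 26 of 38 (median 0.12) and splicing factors for 36 of 56 (median 0.10).

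**Figure D5:**
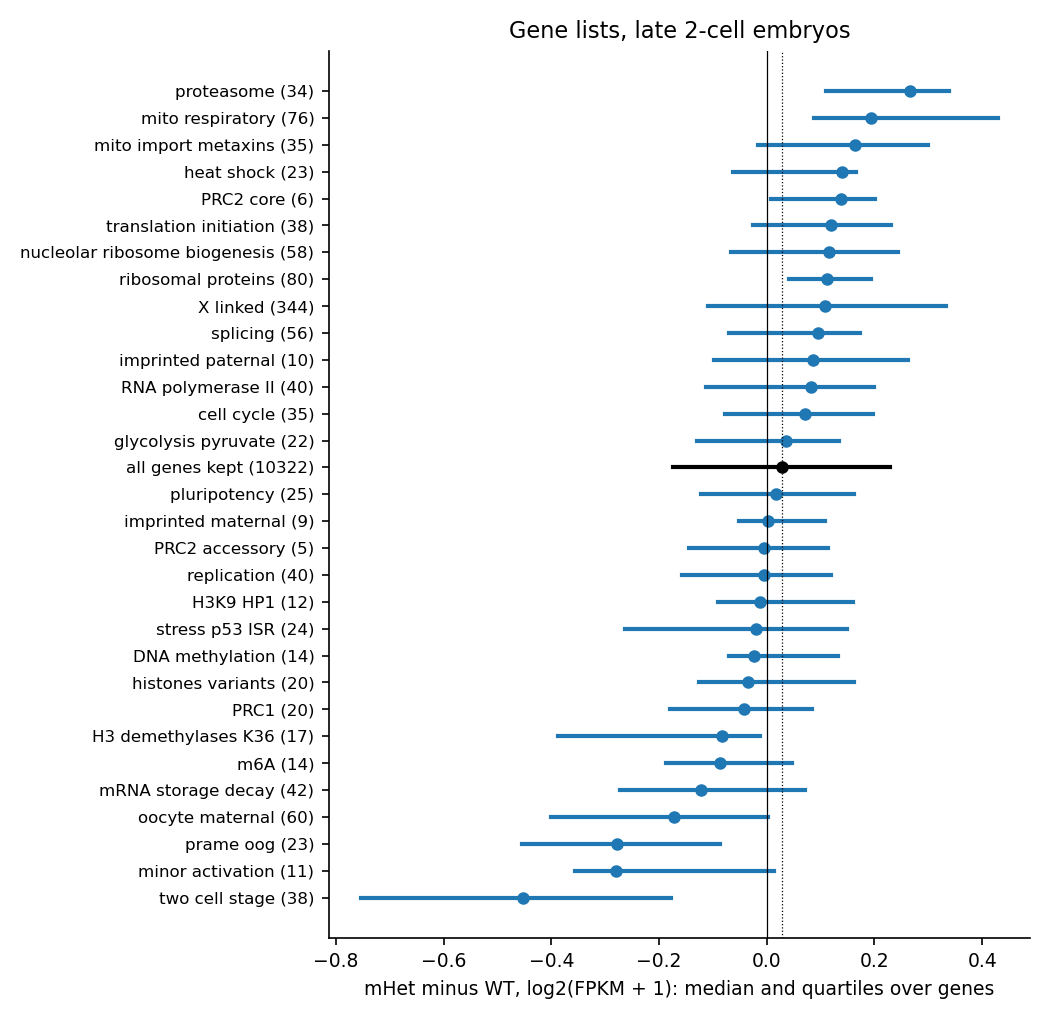
Median (points) and quartiles (bars) over genes of the mHet minus WT difference in log2(FPKM + 1) for the 30 lists with 5 or more genes kept, with the number of genes in parentheses and all genes in black. The 2-cell-stage list is lowest, at -0.45, and the proteasome list is highest, at 0.27.

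For PRC2, the target of EZHIP, 0 of the 6 core subunits had an unadjusted p under 0.05 in limma. With 2.94% of all genes at that level, this count says nothing particular about PRC2. Ezh2, the main catalytic subunit, was at 35.7 and 42.8 FPKM in WT and 37.4 and 29.1 FPKM in mHet (difference -0.24, SE 0.24). Ezh1 was at 12.6 and 9.09 FPKM in WT and 15.0 and 10.2 FPKM in mHet. Suz12 was at 83.7 and 84.1 FPKM in WT and 93.4 and 73.7 FPKM in mHet, and Eed at 28.6 and 25.5 FPKM in WT and 26.1 and 31.3 FPKM in mHet. These subunits overlapped between the groups, at a precision that leaves changes of the size of the SE, and larger ones, unresolved. For a typical gene the SE was 0.33, while the interval around its difference reached 0.76 to either side. Of the histone-binding subunits, Rbbp4 was at 17.9 and 26.8 FPKM in WT and 27.3 and 27.2 FPKM in mHet, just above both WT values. Rbbp7 was at 60.3 and 95.9 FPKM in WT and 91.2 and 84.6 FPKM in mHet. Accessory subunits were lower for 3 of 5 kept, with 0 at an unadjusted p under 0.05, again beside 2.94% of all genes.

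Among enzymes that act on the same or neighbouring marks, Kdm6a, an X-linked demethylase of H3K27, was at 12.0 and 13.9 FPKM in WT, 7.67 and 8.28 FPKM in mHet and 5.64 and 5.10 FPKM in mKO. Kdm6a therefore kept the order of Ezhip across the 3 genotypes, and its mHet minus WT difference was -0.64 (SE 0.26, unadjusted p = 0.0394, limma adjusted p = 1.00). Its list was lower for 13 of 17 members, with a median of -0.08. Dnmt3l, a cofactor of the de novo DNA methyltransferases, was at 3.33 and 5.67 FPKM in WT and 13.7 and 10.3 FPKM in mHet, a difference of 1.26 (SE 0.42, unadjusted p = 0.0149, limma adjusted p = 1.00). In mKO Dnmt3l was at 5.26 and 12.6 FPKM, with 1 library among the WT values and the other among the mHet values.

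Genes imprinted through H3K27me3 of the oocyte could hardly be read at this stage. Of 24 listed, 15 were in the table and 3 passed the minimum. Gab1, a signalling adaptor, was at 3.52 and 3.39 FPKM in WT, 4.97 and 3.79 FPKM in mHet and 1.41 and 0.668 FPKM in mKO. Etv6 was at 4.93 and 4.06 FPKM in WT and 5.01 and 5.36 FPKM in mHet, and Enc1 at 0.620 and 1.15 FPKM in WT and 1.44 and 1.45 FPKM in mHet. Xist, the RNA that silences an X chromosome, reached at most 0.390 FPKM in any library. X-linked genes were higher in mHet for 217 of 344, with a median of 0.11, which was -0.00034 without WT replicate 1. Their summed level was 6473 and 8340 FPKM in WT and 8500 and 7977 FPKM in mHet, with the highest value in mHet replicate 1, the library with no Y-linked transcript.

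Of the genes named for their small p, Chchd4, of the import machinery of the mitochondrial intermembrane space, was at 8.77 and 6.68 FPKM in WT, 26.5 and 20.0 FPKM in mHet and 11.5 and 8.84 FPKM in mKO. Its difference was 1.47 (SE 0.28), the smallest unadjusted p among the higher named genes (0.000664, limma adjusted p = 1.00). Psmg4, an assembly chaperone of the proteasome, was at 2.44 and 2.27 FPKM in WT and 7.09 and 7.04 FPKM in mHet, but at 1.83 and 1.32 FPKM in mKO. For Chchd4 and Psmg4, both mHet libraries thus stood above the other 4. Surf2 was at 15.9 and 15.6 FPKM in WT and 30.2 and 33.0 FPKM in mHet. Sirt6, a histone deacetylase, was at 2.85 and 4.32 FPKM in WT and 10.3 and 7.30 FPKM in mHet. The interferon-induced Bst2 was at 6.70 and 4.41 FPKM in WT, 13.1 and 11.3 FPKM in mHet and 15.3 and 19.1 FPKM in mKO, with means in the order WT, mHet, mKO. Besides Ndufa9, the other higher named genes were Tecr, Atp5sl, Creld1, Fam132a, Tmem50a and the very short Mir3082, for which FPKM is unstable (0.167 and 0.165 FPKM in WT, 14.0 and 1.93 FPKM in mHet).

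Of the lower named genes, the replication-dependent histone gene Hist1h4i was at 11.4 and 9.92 FPKM in WT, 2.05 and 3.498 FPKM in mHet and 11.0 and 13.8 FPKM in mKO. Its difference was -1.65 (SE 0.31, unadjusted p = 0.000539, limma adjusted p = 1.00), and both mHet libraries stood below the other 4. Such mRNAs lack a poly(A) tail, and these libraries were made from poly(A) RNA. Gli3, a transcription factor of Hedgehog signalling, was at 5.59 and 6.26 FPKM in WT and 1.08 and 1.71 FPKM in mHet. Cldn25, a claudin-family gene, was at 13.8 and 15.5 FPKM in WT, 6.01 and 5.51 FPKM in mHet and 4.34 and 3.81 FPKM in mKO, so both groups with less Ezhip lay below WT. Sesn1, a p53 target, was at 10.8 and 3.39 FPKM in WT and 1.21 and 1.66 FPKM in mHet. Defb13, Defa4, Pkig, Apol7b, Smim8, Cdo1 and Prr23a completed the lower group with Tdpoz5.

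All 24 named genes kept their direction under every alternative run that kept the gene. They were chosen for groups that did not overlap, so only the runs that rescaled the libraries could have reversed a direction. At the 1-cell PN5 stage, 9 of the 12 higher and 7 of the 12 lower genes were above the minimum, 4 and 2 of them had the same direction, and 0 had an unadjusted p under 0.05. Across all genes at PN5, limma called 0 of 8604 between mHet and WT (0%), with 72 at an unadjusted p under 0.05 (0.837%), made up of 29 higher (0.337%) and 43 lower (0.5%). Leaving out PN5 mHet replicate 2 gave 1 called gene, Aven.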

How the data were processed

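Smart-seq2 libraries were sequenced on a DNBSEQ-T7, per the labels' protocols. HTSeq 0.6.0, HISAT2 2.2.1 and Trim Galore 0.4.2 are listed as tools, with mm9 and hg19 as builds, per the submitters' processing notes. The sources used here give neither the tool that made the FPKM nor the annotation. The authors deposited FPKM per gene in 1 table per stage. From these, 25 rows with date-like names (gene symbols altered by a spreadsheet) were dropped, genes reaching 1 FPKM in 2 or more libraries were kept, and limma 3.58.1 (R 4.3.3) was fitted to log2(FPKM + 1) of all 6 libraries of a stage (group means, trended prior, two-sided, Benjamini-Hochberg over all genes kept, threshold 0.05). The fit was tested on simulated data. Lists have no test: counts and medians stand beside those of all genes. The comparison, lists and sets were chosen with earlier results of these data known. Genes named were Ezhip, those past the threshold, 12 higher and 12 lower ones of smallest p among genes averaging at least 2 FPKM whose groups did not overlap (predicted and clone-named models excluded), and up to 4 members with the smallest p from each list discussed; others named in a list or after a left-out library (Phc2, Aven) were chosen for their known role or after their values were seen. Alternatives were a pseudocount of 0.1, no minimum, a mean of 5 FPKM, median-ratio scaling, removal of Rn45s (added after seeing the data), a replicate block, 2 groups alone and each library left out. Promoters are RefSeq sequences of GRCm38.p6. Strand use in counting is not given, so antisense or overlapping genes are uncertain.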

Additional observations from a re-analysis of the deposited data

Results flagged for a closer look

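Tecr, an enzyme of very-long-chain fatty acid synthesis, was flagged because every mHet library lay above both WT libraries in late 2-cell embryos and below both in 1-cell PN5 embryos. Its log2 difference was 1.43 at the late 2-cell stage (2.77 and 4.12 FPKM in WT, 8.74 and 13.4 FPKM in mHet) and -0.36 at PN5 (29.8 and 33.6 FPKM in WT, 20.4 and 29.3 FPKM in mHet). The difference between the stages was not tested.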

How the results depend on the processing

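The late 2-cell mHet against WT count stayed at 0 except for 1 gene without mHet replicate 1 (range 0 to 1 with a library left out), and the PN5 count likewise was 0 to 1. The Ezhip difference ranged from -1.28 to -0.64. The mKO against mHet count of 9 became 37 with Rn45s removed, 18 with the minimum mean of 5 FPKM, 16 with median-ratio scaling, 0 with no minimum, with a pseudocount of 0.1 or with 2 groups alone, and 0 to 25 with a library left out. With the replicate number as a block it was 99 (60 higher, 39 lower), and mHet against WT had 0 calls and 526 genes at an unadjusted p under 0.05 with the block, while PN5 had 0 calls and 346 genes at that p (72 without it). Same-numbered libraries deviated together at the late 2-cell stage (correlations 0.213 to 0.257) and at PN5 (0.515 to 0.557), but only 2 numbers are shared and no label ties them, so they were not treated as pairs. The 2-cell-stage median ranged from -0.72 to -0.25 and the activated-set median from -0.00085 to 0.29 with a library left out. Medians that changed sign were those of ribosomal proteins (-0.14 without WT replicate 1, -0.20 without mHet replicate 2, range up to 0.42), the respiratory chain (-0.031 without mHet replicate 2, up to 0.51), PRC1 (0.054 without mHet replicate 2, down to -0.13), PRC2 core (-0.0055 without WT replicate 2, up to 0.21) and X-linked genes (-0.00034 without WT replicate 1, up to 0.21); the causes were not tested. Depth is unknown, and 2 libraries a group limit what could be called.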

Other observations

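A few further genes differed widely between libraries of 1 genotype. Gnas, an imprinted locus for a G-protein subunit, was at 9.22 and 5.59 FPKM in WT, 5.64 and 0.162 FPKM in mHet, and 13.4 and 0.284 FPKM in mKO. Phc2 and Gnas were both chosen after their values were seen. Of 24 stress genes 3 were higher and 5 lower without overlap between mHet and WT, and of 22 glycolysis genes 4 and 3, against 16.4% and 14% of all genes. Pmaip1, a p53 target that promotes cell death, was at 5.17 and 4.89 FPKM in WT, 2.41 and 2.205 FPKM in mHet and 3.17 and 2.63 FPKM in mKO (unadjusted p = 0.0191 by limma). Ldha, a subunit of lactate dehydrogenase, was at 10.8 and 11.1 FPKM in WT, 6.51 and 6.54 FPKM in mHet and 19.9 and 13.8 FPKM in mKO, so mHet lay below WT and mKO above. Xbp1, a factor of the unfolded protein response, was at 0.336 and 0.485 FPKM in WT and 3.13 and 1.44 FPKM in mHet. The red cell gene Hba-a1 was at 3.56 and 5.44 FPKM in WT and 7.95 and 23.1 FPKM in mHet. The blood, fibroblast and epithelium marker list summed to 68.8 and 90.7 FPKM in WT and 58.4 and 120.4 FPKM in mHet. Most of that sum was Epcam, which overlapped between the groups (62.7 and 76.8 FPKM in WT, 49.2 and 92.9 FPKM in mHet). Cd52, of the same list, was at 1.93 and 7.27 FPKM in WT and 0.467 and 4.36 FPKM in mHet.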
